A study of Mus musculus and unidentified plasmid with 60 samples.

Results

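The regions described here are wide binding regions of a dominant-negative RFX protein that were listed in silenced cortical neurons and had no counterpart after 1 h of depolarization. They number 574 of the 173231 regions in the silenced list. They were chosen by measured values: a peak centre in both replicate columns at 0 h, a width of at least 300 bases at 0 h, and not 1 base shared with any region listed at 1 h. The comparison set is the 42146 regions of the 0 h list with the same width and support that do overlap a 1 h region. "Absent" and "found" refer to these lists only, and a region missing from a list is not shown to be unbound.

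RFX proteins are transcription factors with a winged-helix DNA-binding domain that recognise the X-box, an imperfect inverted repeat. They are best known for switching on genes of the primary cilium, and RFX5 and its partners act at MHC class II promoters. A dominant-negative RFX competes with the native proteins, so these lists show where the tagged construct was recovered and not where a native family member bound. Depolarization with KCl opens voltage-gated calcium channels and starts activity-dependent transcription in neurons.

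All groups were primary cortical cultures from E16 embryos of CD-1 mice, taken at day 7 in vitro (DIV7). In both RFX-DN groups the construct came from a lentivirus added on DIV2, and activity was blocked overnight from DIV6 with tetrodotoxin and the NMDA receptor blocker DL-2-amino-5-phosphonopentanoic acid. The 0 h group was left unstimulated and the 1 h group received 55 mM KCl for 1 h, and in both the construct's chromatin was recovered with an antibody to MYC. Each group has 2 libraries and 1 combined list, as has a group titled WT, whose treatment is not in the labels and whose transduction is unclear. The remaining samples of the 60 in the series were not analysed here.

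The lists give a chromosome number, a start, an end and the 2 columns of centres, with starts and ends printed here as deposited (mm9). They hold no peak height, score or read count, so the depth is unknown. The 1 h list held 122135 regions and the WT list 43. Which library belongs to which column is not given. The regions were not assigned to genes, because the reference tables at hand are of another build.

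Absence was rare among wide regions with both centres and common elsewhere in the list. Of all 0 h regions 34.6% had no 1 h counterpart, of those with both centres 15.1%, and of those with both centres and at least 300 bases 1.34% (574 of 42720, 95% interval 1.24% to 1.46%). Among wide 0 h regions supported by 1 column the share was higher, at 13.3% of 1108 with a first-column centre only and 54.7% of 106 with a second-column centre only. In the opposite direction, 9 of 30809 wide 1 h regions with both centres (0.0292%) had no 0 h counterpart. These shares are set by the selection and by the length of the list searched, so they are descriptions and carry no test. All intervals of shares here are exact Clopper-Pearson intervals that cover counting error only, and regions are not replicates of a condition.

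The count rested heavily on the 1 h replicate columns. Without the first 1 h column 3239 wide regions had no counterpart, and without the second 941. When only 1 h regions with both centres were searched, 3757 had none, and by construction the others among them had a 1 h counterpart with a centre in 1 column. Requiring shared length of at least 50% of both regions gave 3932. Lowering the width to 200 bases gave 5079 and raising it to 400 bases gave 311.

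The width threshold cut through a smooth decline, whereas the overlap threshold had few members near it. Of the 0 h regions with both centres that were 290 bases wide, just outside the threshold, 82 of 4044 (2.03%) were absent. At 300 bases, just inside it, 56 of 3866 (1.45%) were absent. Only 4 absent regions lay within 250 bases of a 1 h region. The 2 closest lay 10 bases from one, at chr5:17079810-17080230 and chr11:113053500-113053880. On the other side of that threshold, 67 found regions were covered by 1 h regions over 10 bases only.

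Absence did not fall steadily with width. From 300 bases up it was lowest in the narrow classes and in the widest ones and highest in between. Below that threshold, regions with both centres were absent in 17.9% of cases at 200 to 240 bases and 4.42% at 250 to 290 bases. At 300 to 340 bases 0.932% of regions were absent (171 of 18357), and at 350 to 390 bases 0.739% (92 of 12452). The share then rose to 2.40% at 400 to 440 bases and to 4.93% at 500 to 540 bases (61 of 1237, interval 3.79% to 6.29%). It was 2.94% at 600 to 690 bases and 1.16% at 700 to 790 bases. Of 711 regions of 1000 bases or more, 0 were absent, which allows a share of up to 0.422% by the limit of 3 counts (interval up to 0.517%).

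**Figure D1:**
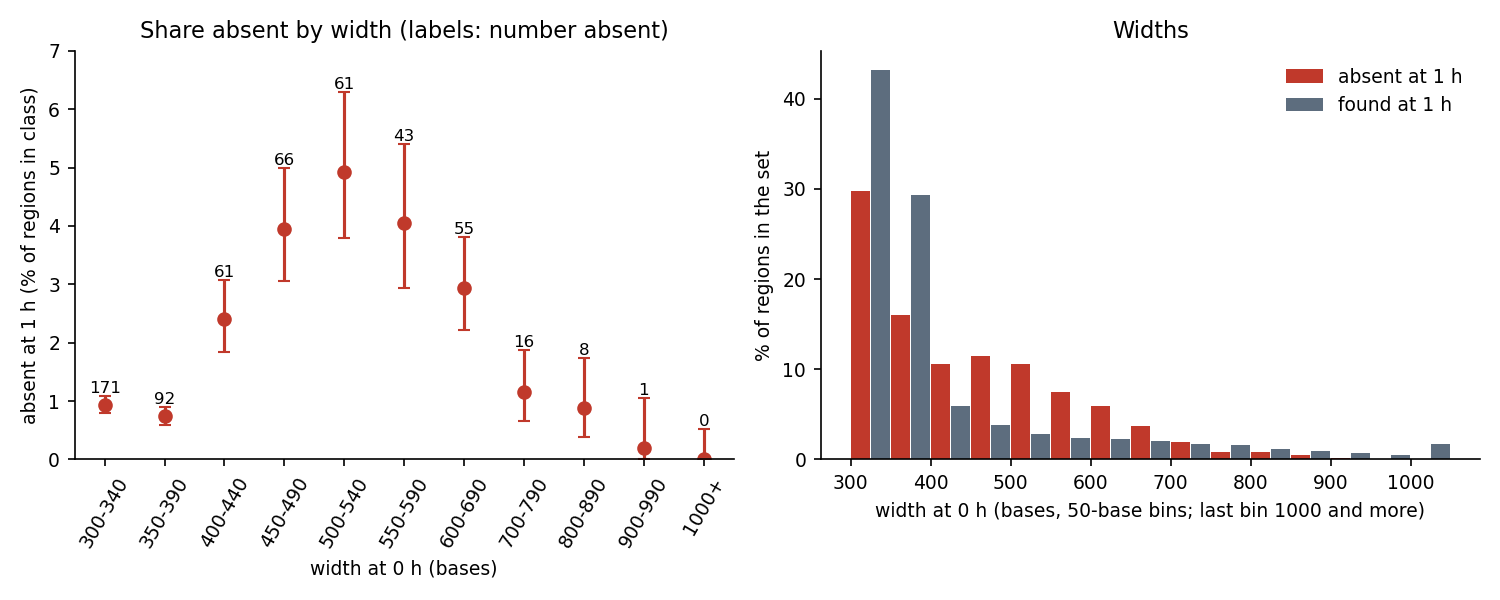
Left, percent of wide 0 h regions with both centres that had no 1 h counterpart, by width class in bases, with 95% exact Clopper-Pearson intervals and the number absent above each point. Right, widths of the absent and found sets as percent of each set in bins of 50 bases. The share absent peaks at 4.93% at 500 to 540 bases and is 0 of 711 at 1000 bases and more.

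The middle of the width distribution lay higher in the 574 absent regions, while the widest regions were all found. Their median width was 415 bases (quartiles 330 and 520, range 300 to 900), against 350 bases (quartiles 320 and 410, range 300 to 6920) for the found regions. Of the absent regions 263 were 300 to 390 bases wide and 311 were 400 bases or wider.

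Within width classes the absent regions differed from the found regions in the place of the replicate centres. A centre is taken here as the position that a replicate's column gives inside the region. In found regions of 300 to 390 bases, the first-column centre lay a median of 160 bases from the nearer edge and so did the second-column centre, close to the middle of the region. In absent regions of the same width, these medians were 130 and 120 bases. Among regions of 400 bases or more the medians were 90 and 95 bases in the absent set and 180 bases in both columns of the found set. Both columns thus showed the same direction in both width ranges.

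A centre less than 100 bases from an edge was held by 326 of the 574 absent regions (56.8%, interval 52.6% to 60.9%) and by 1561 of the 42146 found regions (3.70%, interval 3.53% to 3.89%). The first column alone gave 42.5% and 1.85%, and the second alone 44.3% and 2.90%. At 300 to 390 bases the shares were 45.6% of absent and 1.66% of found regions, and at 400 bases or more 66.2% and 9.09%. With a limit of 50 bases they were 19.0% and 0.686%. This measure was chosen after the values were seen. Where the absent set was enlarged by searching fewer or stricter 1 h regions, its share fell but stayed above that of the found set. Each enlarged set holds all 574 regions, so its share is not independent of theirs, and the added regions were not examined alone. Without the first 1 h column the shares were 28.6% and 2.43%, without the second 47.8% and 3.44%, and with 50% shared length required 29.1% and 1.91%.

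Read the other way, the share absent dropped steeply as the centres moved inward, at nearly every width. The distance used is the shorter of both columns' distances to an edge. At 300 to 390 bases, 29.9% of 117 regions were absent when it was under 50 bases and 16.7% of 509 at 50 to 99 bases. In the same width class 1.15% of 9911 were absent from 100 to under 150 bases and 0.143% of 20272 at 150 bases or more. At 500 to 690 bases the sequence was 28.9%, 13.9%, 3.60%, 0.486% and, from 200 bases, 0.274%. Regions of 700 bases or more stood apart, with 2 of 50 absent under 50 bases and 8 of 208 (3.85%) at 50 to 99 bases. Regions under 300 bases with both centres, which hold no member, showed the same order, with 53.9%, 26.3% and 5.54% absent at under 50 bases, at 50 to 99 bases and from 100 bases up. These regions were not split by width, and narrow regions cannot hold a centre far from an edge. Absence also fell with width among them (17.9% at 200 to 240 bases, 4.42% at 250 to 290 bases). Their order by edge distance was therefore not separated from that by width.

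**Figure D2:**
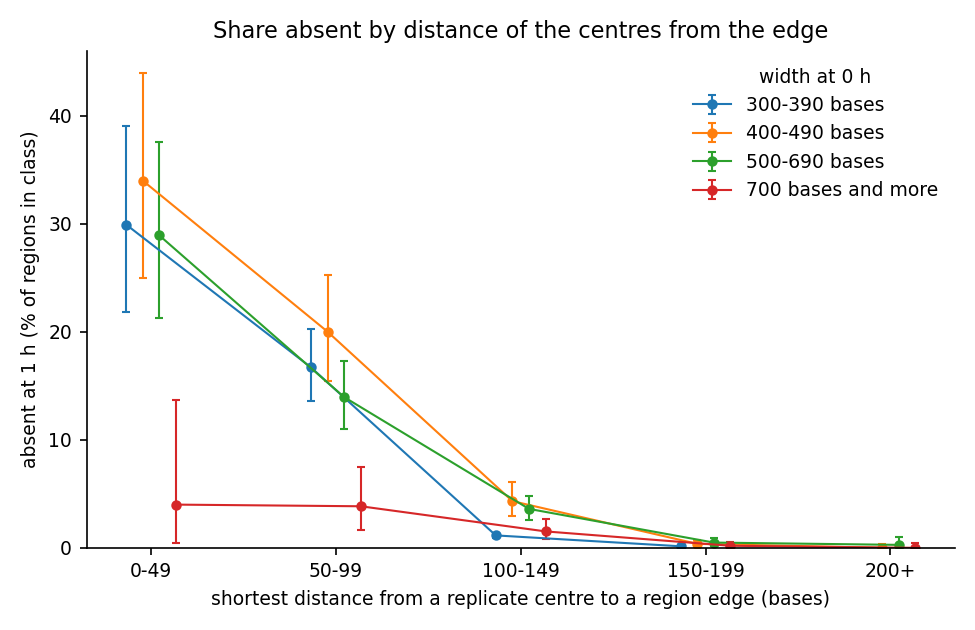
Percent of wide 0 h regions with both centres that had no 1 h counterpart (y axis) by the shortest distance from a replicate centre to a region edge in bases (x axis), in 4 width classes, with 95% exact Clopper-Pearson intervals. In the 3 classes under 700 bases the share is 28.9% to 34.0% at 0 to 49 bases and 0.143% to 0.486% from 150 to under 200 bases.

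The centres of absent regions were arranged in several ways. In 119 regions (20.7%, against 0.736% of found regions) both centres lay within 100 bases of the same end. Here the columns agreed closely, with a median of 10 bases between centres, and a median of 400 bases of the region stretched away beyond them. In 53 regions (9.23%, against 0.311%) the centres lay near opposite ends, a median of 365 bases apart. In 72 regions (12.5%, against 0.804%) the first-column centre alone lay near an end, and in 82 (14.3%, against 1.85%) the second-column centre alone. In the remaining 248 (43.2%, against 96.3%) neither centre lay within 100 bases of an edge.

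Among those 248 regions the median width was 350 bases, the same as in found regions with this arrangement. The quartiles differed, at 310 and 510 bases against 320 and 400 bases in the found regions. The centres of the 248 lay a median of 20 bases apart, against 10 bases. Of the absent regions of 400 bases or more, 87.8% held a centre in the outer 25% of their length at either end, against 42.0% of found regions of that width.

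Agreement between the replicate centres was lower in the absent set. The median distance between the 2 centres was 30 bases in absent and 10 bases in found regions, both in all widths and at 300 to 390 bases. The median of the absent set came to 10 bases, as in the found set, with 50% shared length required. Centres at least 100 bases apart were held by 147 absent regions (25.6%, interval 22.1% to 29.4%) and 3.56% of found regions. At 300 to 390 bases these shares were 15.6% and 0.625%, and at 400 bases or more 34.1% and 11.3%.

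**Figure D3:**
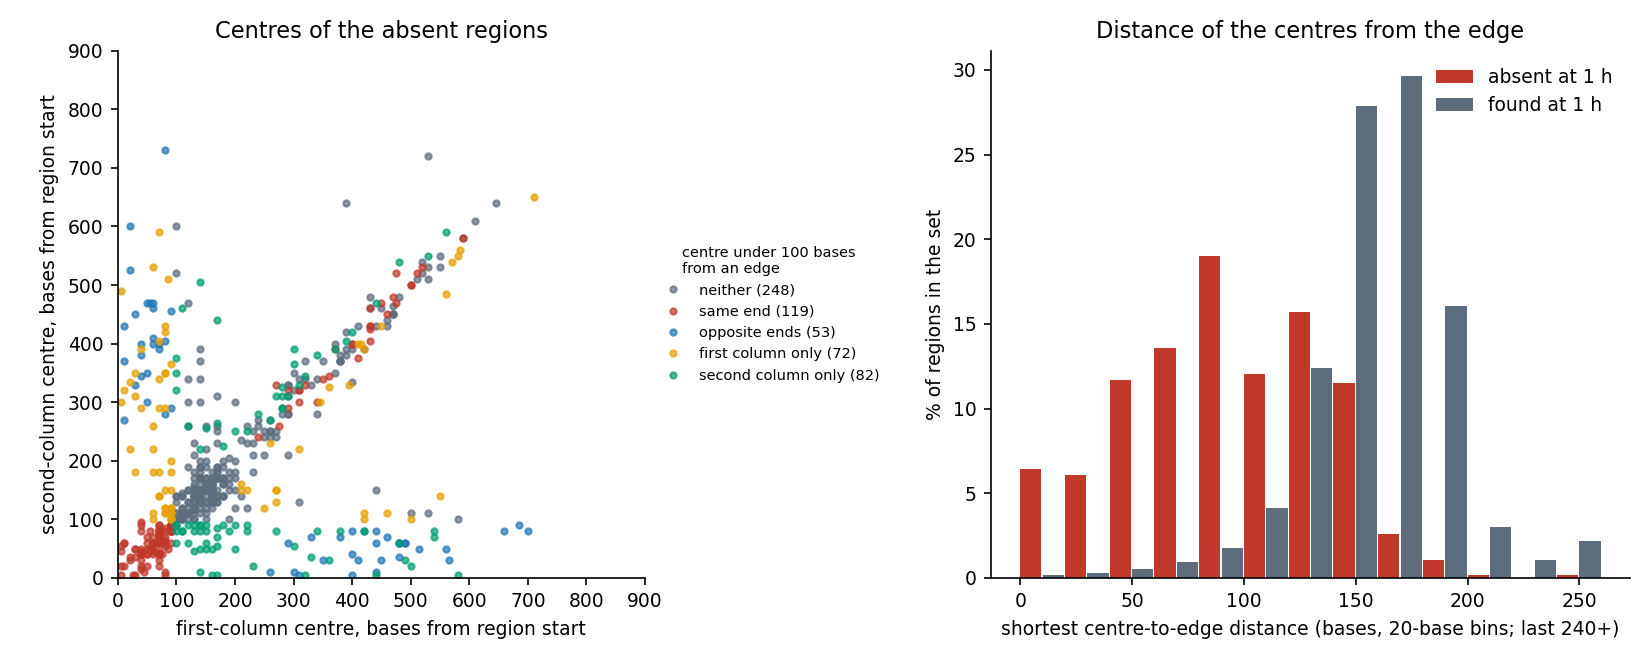
Left, position of the second-column centre against that of the first-column centre, in bases from the region start, for the 574 absent regions, coloured by which centres lie under 100 bases from an edge. Right, the shortest centre-to-edge distance in bases for absent and found regions, as percent of each set. Points along the diagonal are regions whose columns agree, the 53 opposite-end regions lie near the axes, and most found regions exceed 140 bases.

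Individual regions show where the centres lay. The widest absent region, at chr12:83422260-83423160 (900 bases), had its first-column centre 440 bases and its second-column centre 150 bases from the start. The next, at chr12:47808680-47809570 (890 bases), had them at 540 and 70 bases. At chr13:24291140-24291980 (840 bases) the columns had them at 480 and 60 bases. In all 3 the second-column centre lay nearer the start and the first-column centre nearer the middle.

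Other wide regions had both centres together toward the start and a long stretch without a centre. The region at chr11:85583560-85584420 (860 bases) had centres at 120 and 110 bases from its start. The one at chr14:24846920-24847770 (850 bases) had them at 130 and 155 bases, and the one at chr17:72922260-72923090 (830 bases) at 130 and 115 bases. Another, at chr11:26003150-26003970 (820 bases), had centres at 110 and 145 bases. At chr13:46435060-46435850 (790 bases) both columns gave 130 bases. In these 5 regions at least 660 bases lay beyond the centres.

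The mirror image, with both centres toward the end, occurred at chr13:42021580-42022330 (750 bases, centres 105 and 110 bases from the end) and chr4:147328770-147329530 (760 bases, 50 and 110 bases from the end). Regions at chr14:60645320-60646130 (810 bases), chr9:120668250-120669070 (820 bases) and chr10:74909240-74910010 (770 bases) had centres 140, 190 and 250 bases apart. The other two of the 15 widest had centres at opposite ends and are among the 5 described next.

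Opposite ends were most extreme in the 5 regions with the greatest distance between centres. At chr16:4629430-4630210 (780 bases) the first-column centre lay 80 bases from the start and the second-column centre 50 bases from the end, 650 bases apart. At chr4:152152940-152153680 (740 bases) the order was reversed and the distance 620 bases. The others lay at chr18:84435550-84436250 (595 bases apart), chr9:60778670-60779290 (580 bases apart) and chr16:31477270-31478000 (580 bases apart). In the chromosome 9 region each centre lay 20 bases from its end. In such regions the columns give positions far apart, although the rule counts both as support.

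**Figure D4:**
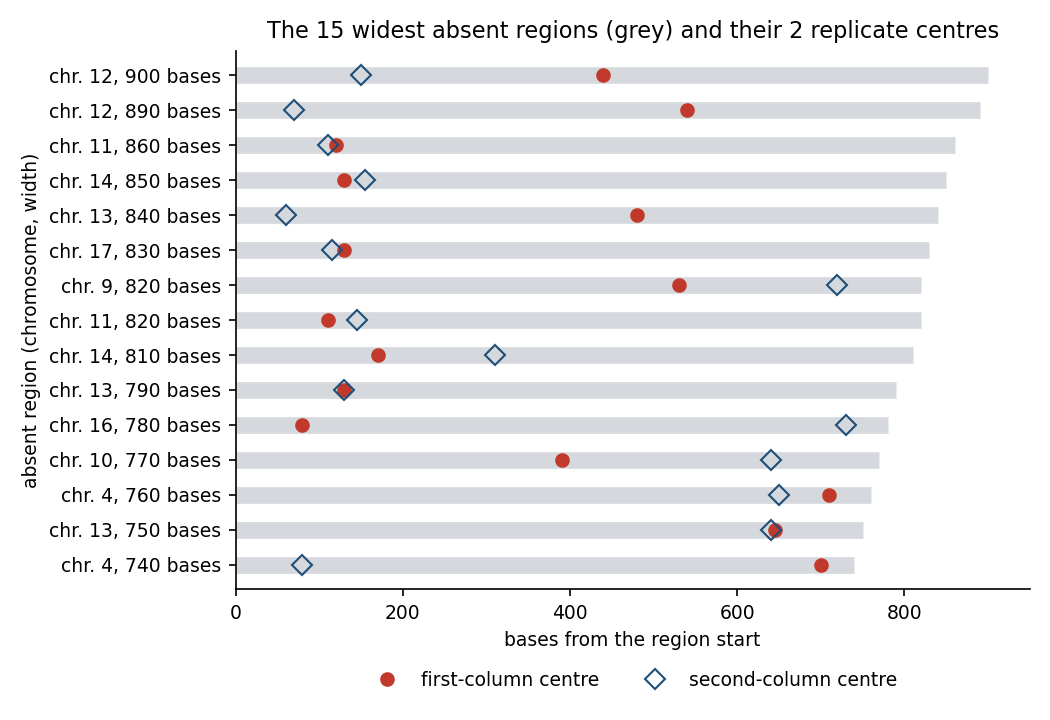
The 15 widest absent regions drawn from their start (grey bars, x axis in bases), with the first-column centre as a filled circle and the second-column centre as an open diamond. Both markers sit toward 1 end in several regions and at opposite ends in the chromosome 16 region and in the lowest chromosome 4 region.

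The 5 widest found regions were wider than any absent region, so their distances to an edge are not matched for width. They spanned 2170 to 6920 bases on chromosomes 13, 9, 17 and 12, and their centres lay at least 300 bases from an edge and at most 70 bases apart. Off-centre places occurred among them too. At chr12:117814590-117816760 (2170 bases) both centres lay 300 bases from the end and 1870 bases from the start. The 1 h counterparts of these 5 regions covered 99.4% of chr13:20006890-20013810 but 19.7% of chr17:56243750-56246440. Across all found regions without a centre near an edge a median of 93.9% of the length was covered at 1 h (quartiles 84.8% and 97.3%). In the 1561 found regions with a centre near an edge the median was 47.4% (quartiles 25.5% and 89.4%). Coverage comes from the same contrast as the selection and was not tested.

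Of the 56 absent regions at the width threshold only 5 are described, and they need not stand for the rest. The first 5 by position lay at chr1:24271280-24271580, chr2:4530190-4530490, chr2:124857910-124858210, chr3:100221830-100222130 and chr3:126951640-126951940. Their centres were 40, 10, 10, 30 and 30 bases apart. In 4 of the 5 both centres lay at least 120 bases from an edge. The exception was the first of the chromosome 3 regions, with its first-column centre 80 bases from the start.

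Most absent regions lay kilobases away from anything listed at 1 h. The median distance to the nearest 1 h region was 5165 bases (quartiles 2165 and 10415), 11.5% had one within 1 kb and 73.9% within 10 kb. The 5 most distant were at chr13:119769990-119770370 (94.3 kb), chr16:60526980-60527290 (75.2 kb), chr17:78280790-78281210 (65.4 kb), chr17:41257420-41257730 (58.7 kb) and chr7:93100440-93100760 (57.0 kb). Of these the chromosome 13, chromosome 16 and chromosome 7 regions were about as isolated at 0 h, with the nearest other 0 h region 94.3, 75.2 and 57.0 kb away. The chromosome 17 regions had other 0 h regions 10.8 and 0.66 kb away.

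A 1 h region that itself lacked a 0 h counterpart lay within 1 kb of 7 absent regions (1.22%, interval 0.492% to 2.50%) and of 0.792% of found regions. Within 10 kb the shares were 7.67% and 7.53%. At both distances the share of the absent set was the higher one, and its interval held the share of the found set. With 7 absent regions within 1 kb a difference could not be judged, and none was tested.

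Another 0 h region lay within 10 kb of 87.1% of absent regions (500 of 574, interval 84.1% to 89.7%) and 82.5% of found regions (interval 82.1% to 82.9%). These shares are not matched for width. At 300 to 390 bases they were 84.0% (interval 79.0% to 88.2%) and 81.5%, and from 400 bases 89.7% (interval 85.8% to 92.9%) and 85.2%. The order did not hold throughout: with only two-column 1 h regions searched the shares were 79.2% and 82.9%, and without the first 1 h column 78.4% and 82.9%. Within 5 kb they were 62.5% and 61.0%, and within 1 kb 17.9% (interval 14.9% to 21.3%) and 14.4% (interval 14.1% to 14.7%). Of the 1218 neighbour counts within 10 kb of absent regions, 62.4% belonged to regions found at 1 h, against 66.2% around found regions. Within 1 kb it was 54.8% of 115 against 68.1% of 6363. A neighbour shared by several regions is counted for each.

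Absent regions were scattered over 20 of the 21 chromosomes in the list's numbering. The highest shares of wide regions absent were on chromosome 17 (2.15%, 37 of 1723, interval 1.52% to 2.95%) and chromosome 9 (2.09%, 51 of 2442, interval 1.56% to 2.74%). The lowest were on chromosome 10 (0.670%, 15 of 2239, interval 0.375% to 1.10%) and chromosome 20 (0.739%, 6 of 812). The intervals of chromosomes 17 and 9 lay above the 1.34% of all chromosomes and those of chromosomes 10 and 12 below it. These 20 intervals were not adjusted for their number, and the other 16 contained 1.34%.

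**Figure D5:**
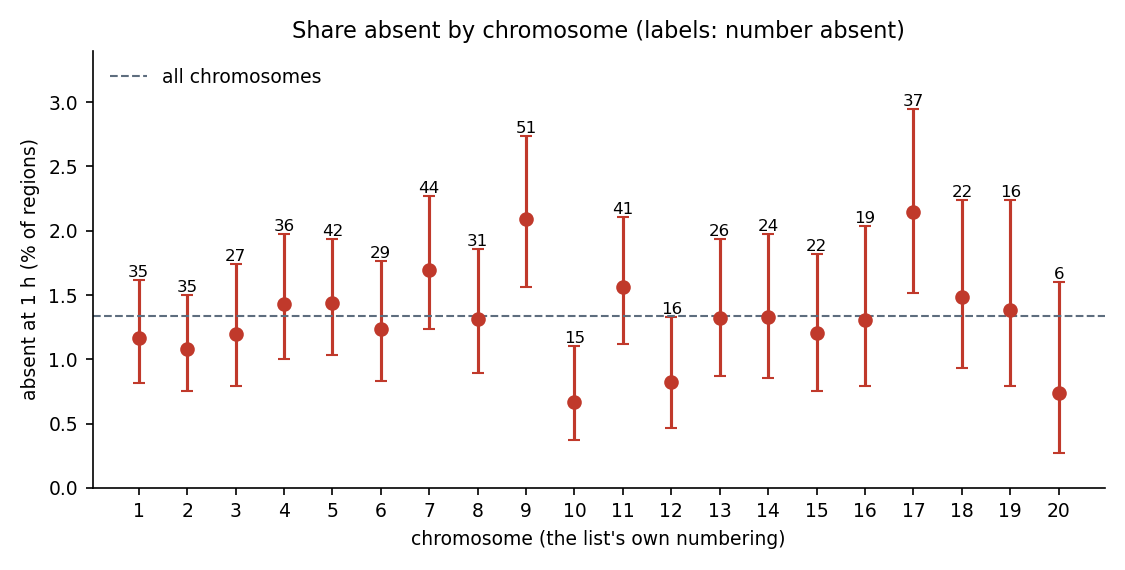
Percent of wide 0 h regions with both centres that were absent at 1 h, by chromosome in the list's own numbering, with 95% exact Clopper-Pearson intervals and the number absent above each. The dashed line is the 1.34% of all chromosomes, and chromosome 21, with 1 region, is left out. Chromosomes 9 and 17 lie highest and chromosome 10 lowest.

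Close groups of absent regions were few. The 1 run of 3 within 100 kb lay on chromosome 9, between 34295950 and 34349990 (54.0 kb). Its members were 520, 380 and 320 bases wide and their centres 5, 10 and 20 bases apart. The widest of the 3 had both centres at most 50 bases from its end, and in the other two they lay at least 120 bases from an edge.

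The WT list met 0 of the 574 absent regions, which allows a share of up to 0.523% by the limit of 3 counts (interval up to 0.641%), and 9 of the 42146 found regions (0.0214%). At the share of the found regions 0.123 absent regions would meet it, so a difference was not detectable with lists of this size.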

How the data were processed

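The lists of combined regions were used as the authors deposited them. Per the submitters' processing notes, the tools include Bowtie and the build is mm9. Not given in the sources used here are the peak caller, its cutoff and the way replicates were merged. Per the file headers, each region has a start, an end and columns c1 and c2. From the values, these hold either a coordinate within the region or a placeholder, and they were read as the replicates' centres.

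Widths are end minus start, in steps of 10 bases at 0 h. Regions sharing at least 1 base counted as found. No significance test was made, because the selection uses the contrast and regions are not replicates. Intervals are exact Clopper-Pearson at 95%, and that of a median comes from binomial ranks. Beside a count of 0 the limit of 3 counts is given with the interval. Nothing in the labels says whether libraries came from separate cultures. In a simulation, the search code recovered the planted overlap, gap or lack of a partner for all 2980 wide 0 h regions tried (100%). Each region had at most 1 planted partner, always at its end with the higher coordinate, so other cases were not tried.

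The regions and lists were chosen with earlier results of these data known. Named are the 15 widest absent regions, the 5 with the most distant centres, the 5 farthest from a 1 h region, the first 5 at the width threshold, runs of at least 3 within 100 kb and the 5 widest found regions. The 2 regions 10 bases from a 1 h region were named after their values were seen. Planned gene, transcription start, base composition and motif results were not run, since no mm9 genome or annotation was used. Python 3.11.15, numpy 2.4.6, pandas 2.3.3, scipy 1.17.1 and matplotlib 3.10.9 were used.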

Additional observations from a re-analysis of the deposited data

How the results depend on the processing

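No paired analysis was possible because the replicate columns name no library and no result comes from a test. Alternatives for the place of the centres, and those beyond the plan for the other measures, were chosen after seeing the data. Values are given for absent and then found regions, and the cause of a change was not tested unless stated. The number and share absent were 5079 (6.08%) from 200 bases, 311 (2.61%) from 400 bases and 263 (0.854%) at 300 to 390 bases, as follows from other regions entering. They were 3932 (9.20%) with 50% shared length and 3757 (8.79%) with two-column 1 h regions only, as follows from stricter searches. Leaving out 1 replicate column gave 632 to 3239 (1.48% to 7.58%), highest without the first 1 h column. With no 1 h region within 250 or 500 bases they were 570 and 559. The larger sets hold the 574 regions by construction, and the 570 and 559 are subsets of them. The median distance between centres in absent regions was 15 bases from 200 bases of width and 10 bases with 50% shared length, and 20 bases without either 1 h column. In found regions it was 10 bases in all 9 alternatives. A centre under 100 bases from an edge was held by 70.4% and 21.0% from 200 bases, 66.2% and 9.09% from 400 bases, 45.6% and 1.66% at 300 to 390 bases, 29.1% and 1.91% with 50% shared length, and 29.8% and 1.97% with two-column 1 h regions. Limits of 50 and 150 bases gave 19.0% and 0.686%, and 91.3% and 33.0%. Without a 1 h column the range was 28.6% to 47.8% and 2.43% to 3.44%. The share with a 0 h neighbour within 10 kb was 81.6% and 81.0% from 200 bases, 84.0% and 81.5% at 300 to 390 bases, and 79.2% and 82.9% with two-column 1 h regions. For found regions it was 85.2% from 400 bases. Windows of 5 and 50 kb gave 62.5% and 61.0%, and 99.3% and 99.5%. Without 1 column the range was 78.4% to 87.7% and 82.3% to 82.9%. Alternatives on transcription starts and motifs were not run. Without read counts the lists give no depth and hence no detection limit.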

Other observations

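Where both centres of an absent region lay within 100 bases of the same end, that end was the one with the lower coordinate in 88 of 119 regions (73.9%, 95% exact Clopper-Pearson interval 65.1% to 81.6%). The same held for 229 of 310 found regions (73.9%) and for 183 of 239 wide two-column regions of the 1 h list (76.6%). The lower end was thus favoured in each of these sets, and the side is not particular to the absent regions. The cause was not tested.

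Besides the run on chromosome 9, absent regions lay within 5 kb of each other in 2 places. On chromosome 4 a region of 570 bases (94863580 to 94864150) and one of 460 bases (94865090 to 94865550) were 940 bases apart. On chromosome 14 regions of 360 bases (123031370 to 123031730) and 300 bases (123032270 to 123032570) were 540 bases apart.

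The median distance to the nearest 1 h region was 5665 bases for absent regions without a centre near an edge (n = 248, 95% interval of the median 5130 to 6770 bases). It was 4250 bases with both centres near the same end (n = 119, interval 2930 to 6160 bases) and 2880 bases with centres near opposite ends (n = 53, interval 1820 to 5550 bases). With only the first-column centre near an edge it was 4975 bases (n = 72, interval 3480 to 6250 bases). With only the second-column centre there it was 4750 bases (n = 82, interval 4100 to 7870 bases). The median for opposite ends was the lowest of these, and its difference from the others was not tested. The distance comes from the 1 h list that the selection also used.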
